A study of Danio rerio with 2 samples.

Results

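Goblet cells were looked for in single-cell RNA sequencing data of whole zebrafish gut by the mucus genes they use. A barcode was taken as a member when it passed the cell filters (500 or more genes detected, no more than 25% of its molecules mitochondrial), when agr2, muc5.1, muc5.2, muc5.3, fer1l6, sytl2b, galnt12 and itln1 together made up 0.2% or more of its unique molecular identifiers (UMIs), and when 2 or more of these 8 genes were detected. Barcodes in which the pancreatic enzyme genes prss1, prss59.1, prss59.2 and ela2l reached 2% would have been left out, and 0 barcodes were. This gave 120 members among 3967 kept barcodes in il26KO and 220 among 5351 in WT, 340 of 9318 in all. The counts of these 8 genes chose the members, so their levels are given as a description, and so are all comparisons of members with other barcodes.

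The study asked what interleukin-26 (IL-26), a cytokine of innate lymphoid cells, does for the young gut epithelium. Its il26KO larvae came from an incross of il26-/- adults, and the WT larvae from clutchmate WT adults of the same AB line, kept in separate tanks, at 5 days post-fertilization (5 dpf) in both groups. Each genotype had 1 library, made from 50 pooled guts that had been digested in 5 tubes of 10. Parents, pool and library were therefore different for each genotype, so that genotype and library cannot be told apart, no test was made between them, and intervals cover counting error only.

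Goblet cells are the mucus makers of the gut. They load large gel-forming mucins into granules, which requires folding in the endoplasmic reticulum (ER), heavy O-linked glycosylation and sulfation in the Golgi, and regulated exocytosis at the apical surface. AGR2 is a protein disulfide isomerase that mouse goblet cells need to fold mucin, SPDEF is the transcription factor that drives their maturation in the mouse, and in the zebrafish larva agr2 marks goblet cells of the gut as well as mucus cells of the pharynx and oesophagus.

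The il26KO library held 122200924 UMIs and the WT library 125236138 UMIs over all barcodes. Members held 3296436 UMIs in il26KO and 4521171 in WT, with a median of 14075.5 UMIs and 2807.5 genes per member in il26KO and of 11682.5 UMIs and 2645.5 genes in WT. Their median mitochondrial share was 2.63% in il26KO and 2.45% in WT. A single il26KO member held 410914 UMIs, 12.47% of all UMIs of the il26KO members. The libraries shared 11 kept barcode sequences, and 0 of them were members in both. The gene il26 had 0 UMIs in the members of either library and, among all other kept barcodes, 0 UMIs in il26KO and 1 UMI in WT, which is too few to check the genotypes.

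Members took a lower share of the kept barcodes in il26KO than in WT. They were 3.02% of the kept barcodes in il26KO (exact 95% interval 2.51% to 3.61%) and 4.11% in WT (3.60% to 4.68%). On the log2 scale il26KO over WT was -0.44 (interval -0.78 to -0.12). The gap lay in barcodes just past the threshold. Between 0.2% and 0.4% of UMIs in the rule genes there were 34 il26KO and 103 WT members, and at 2% or more there were 29 in each library. When 0.4% was required the log2 ratio was -0.012 (interval -0.43 to 0.40), and at 0.8% it was 0.057 (interval -0.48 to 0.59). The median share of UMIs in the rule genes was accordingly 0.657% in il26KO members and 0.423% in WT members. The lowest members held 0.209%, 0.210% and 0.218% in il26KO and 0.202%, 0.203% and 0.204% in WT, and the highest barcodes left outside held 0.199%, 0.198% and 0.187% in il26KO and 0.199%, 0.199% and 0.197% in WT.

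The label "goblet cells" was only partly borne out by its markers. Membership rested on agr2, which supplied 89.5% of the rule-gene UMIs of the il26KO members and 91.4% of those of the WT members and was detected in 119 and 219 of them. Its level was 7708 CPM (UMIs of a gene for every 1000000 UMIs of the summed barcodes) in il26KO members and 6108 CPM in WT members. The other kept barcodes had 64.7 CPM in il26KO and 92.4 CPM in WT. Outside cells, in droplets of 10 to 100 UMIs, agr2 stood at 692 CPM in il26KO and 443 CPM in WT, so free agr2 RNA was present in both suspensions. In vascular endothelial barcodes, which have no mucus, 24.4% of the il26KO barcodes and 12.2% of the WT barcodes had an agr2 UMI (median depth 6341 and 5024 UMIs). After thinning every barcode to 2000 UMIs these shares were 6.15% and 5.45%, against 100% of il26KO members and 99.5% of WT members. Thinning left out 12 il26KO and 26 WT members of fewer than 2000 UMIs.

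Of the granule genes, sytl2b, a synaptotagmin-like protein that tethers secretory vesicles, was detected in 94 of 120 il26KO members (38.9% after thinning) and in 209 of 220 WT members (47.9% after thinning). In vascular endothelial barcodes it was detected in 2.47% in il26KO and 3.80% in WT, and in 0% and 1.21% after thinning. The level of sytl2b was 202.9 CPM in il26KO members and 294 CPM in WT members. The ferlin fer1l6, a membrane protein with calcium-binding domains, had 27.0 CPM in 32 il26KO members and 59.7 CPM in 89 WT members. The gene galnt12, which starts O-linked glycosylation, had 18.8 CPM in 40 il26KO members and 13.7 CPM in 46 WT members.

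The gel-forming mucins themselves were scarce, with 1 exception. The mucin gene muc5.3 had 654 CPM in il26KO members, in 47 of them, and 199.9 CPM in WT members, in 61 of them. Outside the members it ran the other way, with 2.15 CPM in il26KO and 4.39 CPM in WT other kept barcodes. After thinning, a muc5.3 UMI was found in 26.9% of il26KO and 18.04% of WT members. In vascular endothelial barcodes it was found in 2.12% in il26KO and 1.36% in WT (1.15% and 0.909% after thinning). By contrast muc5.1 had 2 UMIs in 1 il26KO member and 15 UMIs in 4 WT members, muc5.2 had 0 UMIs in il26KO and 9 UMIs in 3 WT members, and the intelectin itln1 had 5 UMIs in 5 il26KO members and 3 UMIs in 2 WT members. These 3 of the 8 rule genes, among them the goblet markers muc5.1 and itln1, were thus at or near 0 in most members. A single WT member held 12 of the 15 WT UMIs of muc5.1 and 7 of the 9 of muc5.2. It also had fer1l6, sytl2b and galnt12 but no agr2 UMI. The most frequent sets of detected rule genes were agr2 with sytl2b alone (33 il26KO and 62 WT members), agr2 with fer1l6 and sytl2b (17 and 54), and agr2 with muc5.3 and sytl2b (14 and 46). Agr2 with muc5.3 and galnt12 but none of the others was seen in 12 il26KO and 2 WT members.

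The members were not a single kind of cell. Beside the rule genes they carried sets of genes of other gut tissues, and whether as single cells or as mixed droplets was not tested. They were parted by the strongest of these sets, with limits chosen after the data were seen. In this order, members were set apart by 1% or more of UMIs in cuzd1.1, cuzd1.2, pdia2 and si:ch211-173a9.6 ("cuzd1"), 1% in cnfn and tcnba ("cnfn tcnba"), 0.01% in hoxb13a, 0.1% in muc5.3 ("muc5.3-high"), 1.5% in ctsl.1, ctsbb and epdl2 ("lysosome-rich") and 3% in fabp6, slc10a2 and tmigd1 ("ileal"). Members with none of these and with 0.02% or more of UMIs in the epithelial genes cldn15la and vil1 were called goblet-like. Each class is a range of a per-cell share and not a cell type, and 9 il26KO and 18 WT members met more than 1 of the 6 limits. Members crowded within 1.5-fold of some limits. At the muc5.3 limit 6 il26KO members lay just under and 5 just over, and 10 WT members just under and 4 just over. At the ileal limit 15 WT members lay just under and 8 just over. A further 3 members in each library fell in no class, in WT among them the member with 12 muc5.1 and 7 muc5.2 UMIs.

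**Figure D1:**
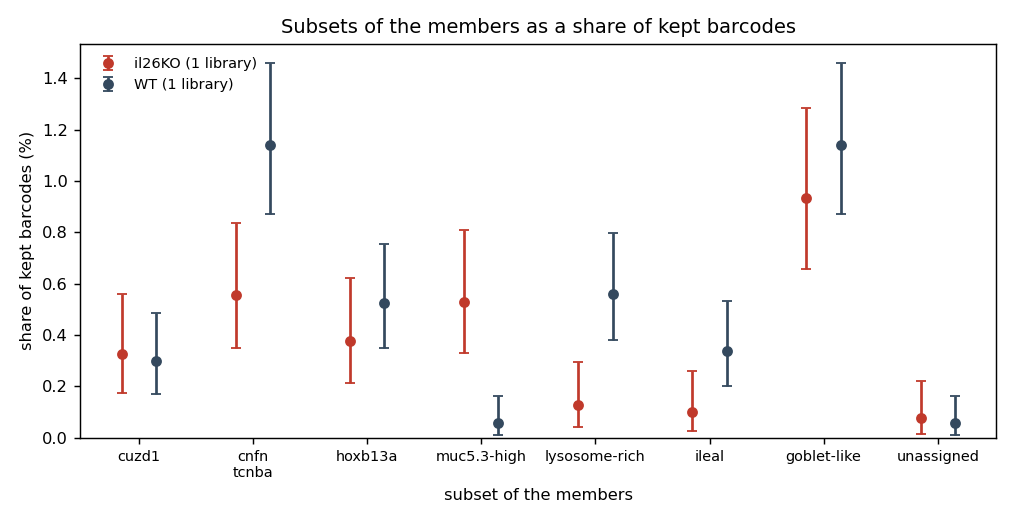
Each subset of the members as a percentage of all kept barcodes, il26KO (red, left) beside WT (blue, right), 1 library each; points are shares and bars exact 95% intervals for counting error. Goblet-like intervals overlap (0.933% and 1.14%), muc5.3-high members are more frequent in il26KO (0.529% against 0.0561%; 0.655% against 0.187% by the muc5.3 limit alone, without the order of the classes), and cnfn tcnba, lysosome-rich and ileal members are more frequent in WT.

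The make-up of the members differed between the libraries more than their total did. Goblet-like members numbered 37 in il26KO and 61 in WT, 0.933% of kept barcodes in il26KO (interval 0.658% to 1.28%) and 1.14% in WT (0.873% to 1.46%), or -0.29 on the log2 scale (-0.92 to 0.32), and these cell numbers could not show a difference. Members of the muc5.3-high class numbered 21 in il26KO and 3 in WT, 0.529% (0.328% to 0.808%) and 0.0561% (0.0116% to 0.164%). Their log2 ratio was 3.24 (interval 1.495 to 5.63). This gap depends on the order of the classes, since 5 il26KO and 7 WT members that reached the muc5.3 limit had already been placed in the cnfn tcnba class. By the muc5.3 limit alone, a count added after seeing the data, there were 26 members in il26KO (0.655% of kept barcodes, 0.429% to 0.959%) and 10 in WT (0.187%, 0.0897% to 0.343%), with a log2 ratio of 1.81 (0.71 to 3.03). Lower in il26KO were the cnfn tcnba class, with 22 members in il26KO and 61 in WT (log2 ratio -1.04, interval -1.81 to -0.32), the lysosome-rich class, with 5 and 30 (-2.15, interval -3.88 to -0.77), and the ileal class, with 4 and 18 (-1.74, interval -3.76 to -0.14). Barcodes past these limits, members or not, also took a smaller share of all kept barcodes in il26KO. Past the cnfn tcnba limit the share was 3.201% in il26KO and 5.55% in WT. Past the lysosome-rich limit it was 7.81% and 10.1%, and past the ileal limit 9.81% and 12.8%. The part of these library-wide shares in the lower member counts was not tested. The cuzd1 class, with 13 il26KO and 16 WT members (0.13, interval -1.04 to 1.28), and the hoxb13a class, with 15 and 28 (-0.47, interval -1.48 to 0.49), differed within counting error.

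**Figure D2:**
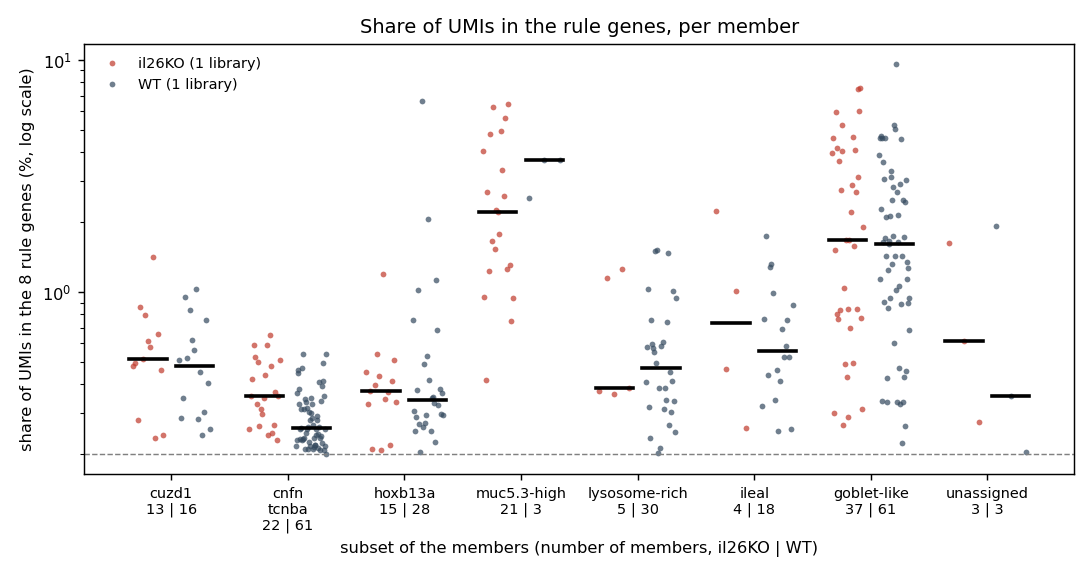
Percentage of UMIs in the 8 rule genes in each member (log scale) by subset, il26KO members (red, left) beside WT members (blue, right); black lines are medians and the dashed line is the 0.2% threshold. Goblet-like members (medians 1.68% and 1.602%) and muc5.3-high members (2.203% and 3.70%) lie well above the threshold, cnfn tcnba members (0.357% and 0.260%) close to it.

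The subsets lay at different distances from the threshold, as the plot of rule-gene shares per member shows. The median share in the rule genes was 1.68% in il26KO and 1.602% in WT goblet-like members and 2.203% in il26KO and 3.70% in WT muc5.3-high members. It was 0.357% in il26KO and 0.260% in WT cnfn tcnba members. The agr2 level followed the same order, with 25615 CPM in il26KO and 26808 CPM in WT muc5.3-high members, 20642 and 22801 CPM in goblet-like members, and 2807 and 2094 CPM in cnfn tcnba members. The lysosome-rich, ileal, hoxb13a and cuzd1 members lay between, at 4595 to 5768 CPM in the libraries. Hence most kept barcodes with the cuzd1, cnfn tcnba, hoxb13a, lysosome-rich or ileal genes did not enter the rule. The members were 17.3% in il26KO and 20.5% in WT of all kept barcodes past the cnfn tcnba limit, 1.61% and 6.0998% of those past the lysosome-rich limit, and 2.06% and 3.94% of those past the ileal limit. Nearly all kept barcodes past the muc5.3 limit were members, as muc5.3 is a rule gene.

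Goblet-like members had agr2, sytl2b and fer1l6 but few UMIs of itln1 and of the gel-forming mucins in the rule. The gene muc5.1 had 0 UMIs in both libraries, muc5.2 had 0 UMIs in il26KO and 1 UMI in WT, muc5.3 had 1 and 3 UMIs and itln1 had 1 UMI in each. Members past the muc5.3 limit had been set apart before this class, so its low muc5.3 was largely fixed by the classing. Against the other members, goblet-like members were led by her15.1, a Notch target and progenitor marker (454 CPM in 8 il26KO and 652 CPM in 16 WT goblet-like members), zgc:162509, lypc and lypd6. Among genes with 10 or more UMIs in the goblet-like members of each library, the 10 that were highest over the kept barcodes outside the members in both libraries included the rule genes agr2 and fer1l6 and, outside the rule, SPDEF, the glycosyltransferase galnt8b.1 and the sugar-nucleotide transporter slc35a3b. SPDEF, chosen after its values were seen, had 45.7 CPM (15 UMIs in 9 members) in il26KO and 69.1 CPM (30 UMIs in 15 members) in WT goblet-like members, against 0.296 CPM and 0.527 CPM in the other kept barcodes and 0 UMIs in empty droplets of both libraries. The ER stress sensor gene ern2 (97.4 CPM in il26KO and 117 CPM in WT; other kept barcodes 2.95 and 2.74 CPM) and creb3l1, a membrane-bound transcription factor of secretory cells (134 CPM in il26KO and 108 CPM in WT; other kept barcodes 3.94 and 4.62 CPM), were also looked up after the fact. The intestinal mucin muc2.2 was rare but lay mostly here, with 5 of the 6 UMIs of all il26KO members and 9 of the 13 UMIs of all WT members. The Atoh1 genes atoh1a and atoh1b, which start the secretory lineage in the mouse gut through their orthologue, had 0 UMIs in the members of both libraries.

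Among the 7 classes, the rule genes sytl2b and fer1l6 were highest in the goblet-like members. The sytl2b level was 536 CPM in il26KO and 940 CPM in WT goblet-like members (log2 ratio -0.81, interval -1.07 to -0.55), and the fer1l6 level was 180 CPM and 281 CPM (-0.63, interval -1.12 to -0.19). Outside the members the sytl2b ratio was -0.92 in all other kept barcodes, -1.69 in enterocyte and 0.19 in enteroendocrine barcodes. For fer1l6 it was -1.22 in all other kept barcodes and -2.87 in enterocyte barcodes. Nearly the same share of goblet-like members had a fer1l6 UMI, 64.9% in il26KO and 65.6% in WT (32.3% and 37.0% after thinning), and a sytl2b UMI was found in 77.4% and 73.9% after thinning. The rule used both genes, so these values describe the members and test nothing.

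Muc5.3-high members had the secretory genes of the goblet-like ones and lacked most of their sytl2b, fer1l6 and cdx1b. They had SPDEF at 61.1 CPM in il26KO (21 UMIs) and 71.9 CPM in WT (2 UMIs), ern2 at 84.3 CPM and 144 CPM and creb3l1 at 128 CPM and 108 CPM. Of the genes on which the goblet-like class was partly set, cldn15la, a claudin of the gut lining, had 26.2 CPM in il26KO and 108 CPM in WT muc5.3-high members, against 1969 and 3125 CPM in goblet-like members, and vil1, which encodes villin, had 11.6 and 71.9 CPM, against 517 and 716 CPM. The caudal homeobox gene cdx1b, used by no rule, had 5.82 CPM (2 UMIs) in il26KO and 0 UMIs in WT muc5.3-high members, against 173 and 306 CPM in goblet-like members. The foregut transcription factor gene sox2 ran the other way, with 122.1 CPM (42 UMIs) in il26KO and 71.9 CPM (2 UMIs) in WT muc5.3-high members and 0 UMIs in the goblet-like members of both libraries. The homeobox gene irx3a also had 0 UMIs in goblet-like members and 154 and 216 CPM in muc5.3-high ones. The genes sytl2b and fer1l6 were all but missing from muc5.3-high members, with 1 and 2 UMIs in il26KO and 0 UMIs each in WT. These genes were picked after their values were seen, and the 3 WT muc5.3-high members hold few UMIs.

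**Figure D3:**
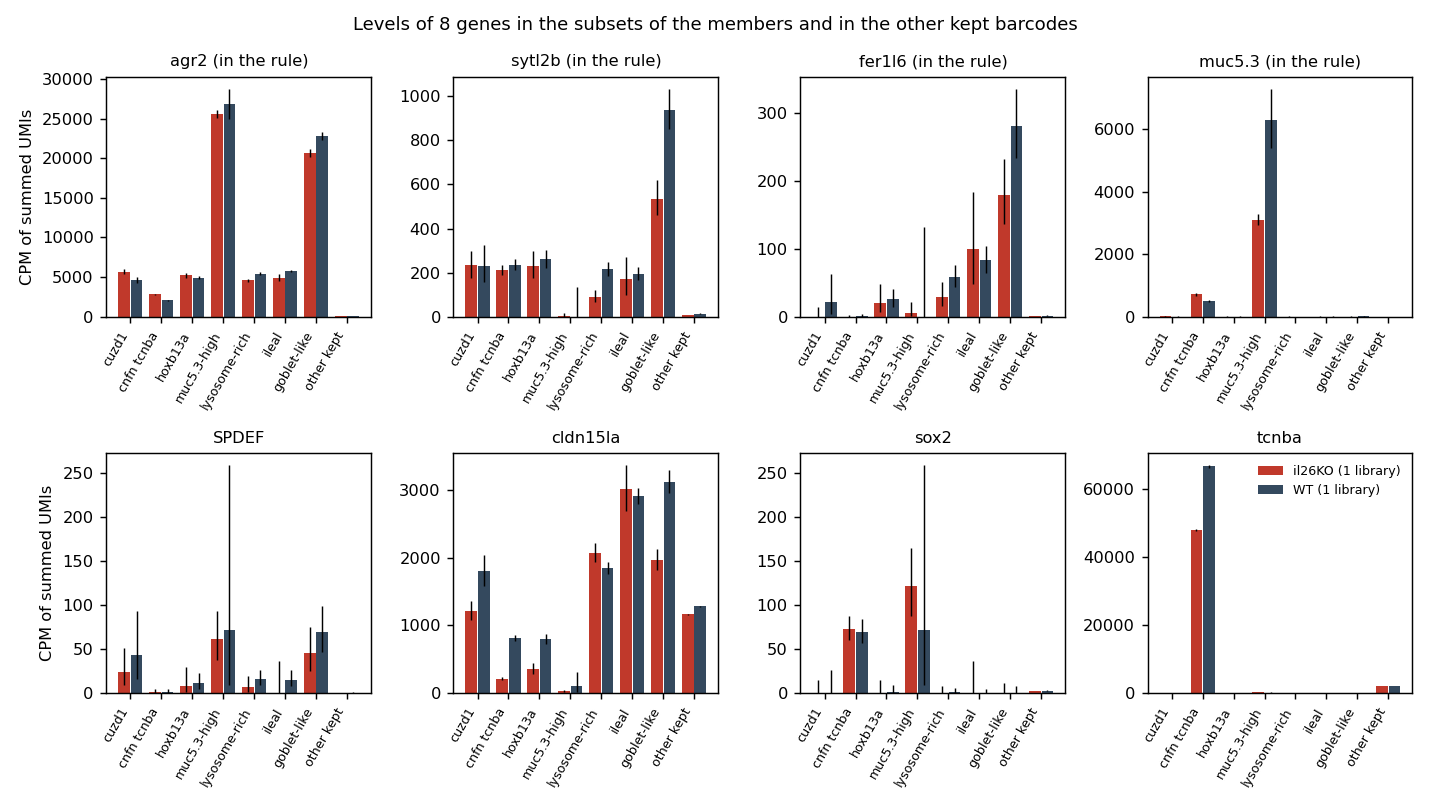
Summed level (CPM) of 8 genes in the subsets of the members and in the other kept barcodes, il26KO (red, left) beside WT (blue, right), 1 library each; error bars are exact 95% Poisson intervals. The gene agr2 is high in muc5.3-high and goblet-like members; sytl2b and fer1l6 peak in goblet-like members, sox2 in muc5.3-high and cnfn tcnba members, and SPDEF is seen mainly in muc5.3-high, goblet-like and cuzd1 members.

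The muc5.3-high members carried a further mucin gene and were led by genes that the rule did not use. The mucin gene muc5f had 111 CPM (38 UMIs) in il26KO and 216 CPM (6 UMIs) in WT muc5.3-high members and 0 UMIs in goblet-like members of both libraries. Leading genes included prss60.2, a serine protease (7192 CPM in il26KO and 1581 CPM in WT), ponzr5 and ponzr6 of the plac8-related family (765 and 614 CPM in il26KO, 503 and 467 CPM in WT), the homeobox gene pitx1 (195 CPM in il26KO and 395 CPM in WT) and si:dkey-203a12.9 (35768 CPM in il26KO and 24687 CPM in WT). Some kept barcodes had at least 3 of BX901923.2, ponzr5, ponzr6, si:dkeyp-92c9.4 and si:dkey-222f2.1, which the rule did not use. These 5 genes were picked from the muc5.3-high members themselves, so their count restates the difference and does not support it. There were 40 such barcodes in il26KO (1.01% of kept, interval 0.721% to 1.37%) and 14 in WT (0.262%, interval 0.143% to 0.439%), which is 1.95 on the log2 scale (1.04 to 2.94). Of these, 26 in il26KO and 4 in WT were members, and 14 in il26KO and 10 in WT were not. They were deeper in il26KO, with a median of 28515.5 UMIs, than in WT, with 10572 UMIs, and the part of depth in this count was not tested.

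The cnfn tcnba members carried genes of squamous and foregut epithelium. A list of 18 such genes, which holds cnfn and tcnba themselves, had 154670 CPM in il26KO and 180692 CPM in WT cnfn tcnba members, against 6637 and 8484 CPM in the other kept barcodes. In addition to tcnba (47873 CPM in il26KO and 66580 CPM in WT) and cnfn, which set them, they were led by tcnbb, penkb, the carbonic anhydrase gene ca15a, the prostaglandin synthase gene ptgs2a (200 CPM in il26KO and 169 CPM in WT) and pdx1, a transcription factor of pancreas and foregut (160 CPM in il26KO and 254 CPM in WT). They had muc5.3 at 717 CPM in il26KO, in 21 of 22 members, and at 491 CPM in WT, in 53 of 61 members, and sox2 at 72.9 and 69.3 CPM. SPDEF had only 2 UMIs in each library here. They were the deepest frequent class in il26KO, with a median of 45377.5 UMIs in il26KO and 17552 UMIs in WT, and 1 il26KO member held 27.2% of the UMIs of the class.

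Members of the cuzd1 class had genes of enzyme-secreting pancreas and of protein folding. They were led by si:ch211-173a9.6 (120944 CPM in il26KO and 94826 CPM in WT), cuzd1.1 and cuzd1.2, relatives of a mammalian zymogen granule protein, pdia2 (2765 and 3006 CPM), cpb1, ptf1a (213 and 251 CPM), prss1 (1942 and 2698 CPM), rbpjl and amy2a, of which ptf1a and rbpjl encode transcription factors of pancreatic acinar cells. They also held spink4 (4526 CPM in il26KO and 3321 CPM in WT), a protease inhibitor of goblet and Paneth cells in mammals, gfi1aa (98.5 and 115 CPM), a secretory lineage factor, and stard10 (1347 and 1997 CPM). The genes si:ch211-173a9.6, cuzd1.1, cuzd1.2 and pdia2 set the cuzd1 class, so their lead was fixed by the classing. The 4 enzyme genes of the left-out rule stayed under its 2% in all cuzd1 members. The hoxb13a members were led by hamp, which encodes the iron hormone hepcidin (880 CPM in il26KO and 585 CPM in WT), irg1l (1954 and 743 CPM), krt15 (2501 and 4204 CPM) and the posterior homeobox gene eve1 (144 and 226 CPM). Lysosome-rich members were led by ctsl.1 (9184 CPM in il26KO and 24412 CPM in WT), cubn, ctsbb, ctsh and lgmn, of the protein-absorbing enterocytes, and ileal members by fabp6 (100522 CPM in il26KO and 119698 CPM in WT) and the bile acid transporter gene slc10a2 (3898 and 2479 CPM). The lead of ctsl.1, ctsbb, fabp6 and slc10a2 was likewise fixed, as these genes helped to set their classes. A single barcode held 51.0% of the UMIs of the il26KO lysosome-rich members and 77.2% of those of the il26KO ileal members. Median depth was 61995 UMIs in il26KO and 31167.5 in WT lysosome-rich, 9637 and 49339.5 in ileal, and 6142 and 6195 in goblet-like members. The highest Scrublet doublet scores (top 3.18% of il26KO and 4.28% of WT kept barcodes) included 1 of 4 il26KO and 3 of 18 WT ileal members. They also included 0 of 5 and 1 of 30 lysosome-rich and 3 of 37 and 1 of 61 goblet-like members.

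Against all other kept barcodes, 610 of 5468 genes (11.2%) were 2-fold or more higher in the members of both libraries and 130 (2.38%) were 2-fold or more lower. Among the 25 highest outside the rule were several genes of mucin assembly, and many of the 25 were high in more than 1 subset. The gene CABZ01080550.1 (110 CPM in il26KO and 246.2 CPM in WT members, against 1.72 and 3.87 CPM in other kept barcodes) was highest in goblet-like members, at 718 CPM in il26KO and 1043 CPM in WT goblet-like members and at 0 UMIs in muc5.3-high ones. Found in both the goblet-like and the muc5.3-high members were galnt8b.1, for O-linked glycosylation (48.7 CPM in il26KO and 62.2 CPM in WT goblet-like members, 131 and 180 CPM in muc5.3-high members), the sulfotransferase gene gal3st3 (177 and 216 CPM, 282 and 683 CPM), the sulfotransferase gene chst6 (57.8 and 82.9 CPM, 72.7 and 108 CPM), the glycosyltransferase gene b3gnt7 (259 and 290 CPM, 230 and 252 CPM), slc35a3b (60.9 and 101 CPM, 148 and 71.9 CPM) and the cargo receptor gene tmed4 (128 and 193 CPM, 108 and 144 CPM). Some were not confined to these classes. In cuzd1 members galnt8b.1 had 35.5 CPM in il26KO and 50.1 CPM in WT, chst6 23.6 and 57.3 CPM, and tmed4 39.4 and 50.1 CPM. Lower there were gal3st3 (0 and 7.16 CPM), b3gnt7 (0 CPM in each library) and slc35a3b (11.8 and 14.3 CPM). The ferlin gene myof was highest in the cnfn tcnba class (664 CPM in il26KO and 459 CPM in WT) and the water channel gene aqp3a in the hoxb13a class (1954 and 1532 CPM), while cuzd1.1 and si:ch211-173a9.6 lay in the cuzd1 class, which they helped to set.

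Summed lists of secretory genes put the subsets in different orders by step. For mucin glycosylation (76 genes found of 84 listed), muc5.3-high members had 6648 CPM in il26KO and 8840 CPM in WT, goblet-like members 5223 and 5267 CPM, and the other kept barcodes 1148 and 1101 CPM. Enteroendocrine barcodes, another secretory class, had 2113 CPM in il26KO and 2047 CPM in WT. For ER folding (57 of 58 genes), the cuzd1 members were highest, at 26695 CPM in il26KO and 18852 CPM in WT, and goblet-like members had 8382 and 8721 CPM, against 3435 and 3225 CPM in other kept barcodes. This list holds pdia2 (2765 and 3006 CPM in cuzd1 members), which helped to set the cuzd1 class, so part of that level was fixed by the classing. The translocon list (33 of 36 genes) gave 13129 and 10356 CPM in cuzd1 members and 7527 and 8136 CPM in goblet-like members. Vesicle traffic from ER to Golgi (59 of 62 genes) was at 5240 CPM in il26KO and 6504 CPM in WT muc5.3-high members and at 4042 and 4456 CPM in goblet-like members. Granule exocytosis (36 of 40 genes) was highest in cnfn tcnba members, at 2110 CPM in il26KO and 1742 CPM in WT, with goblet-like members at 1221 and 1126 CPM.

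**Figure D4:**
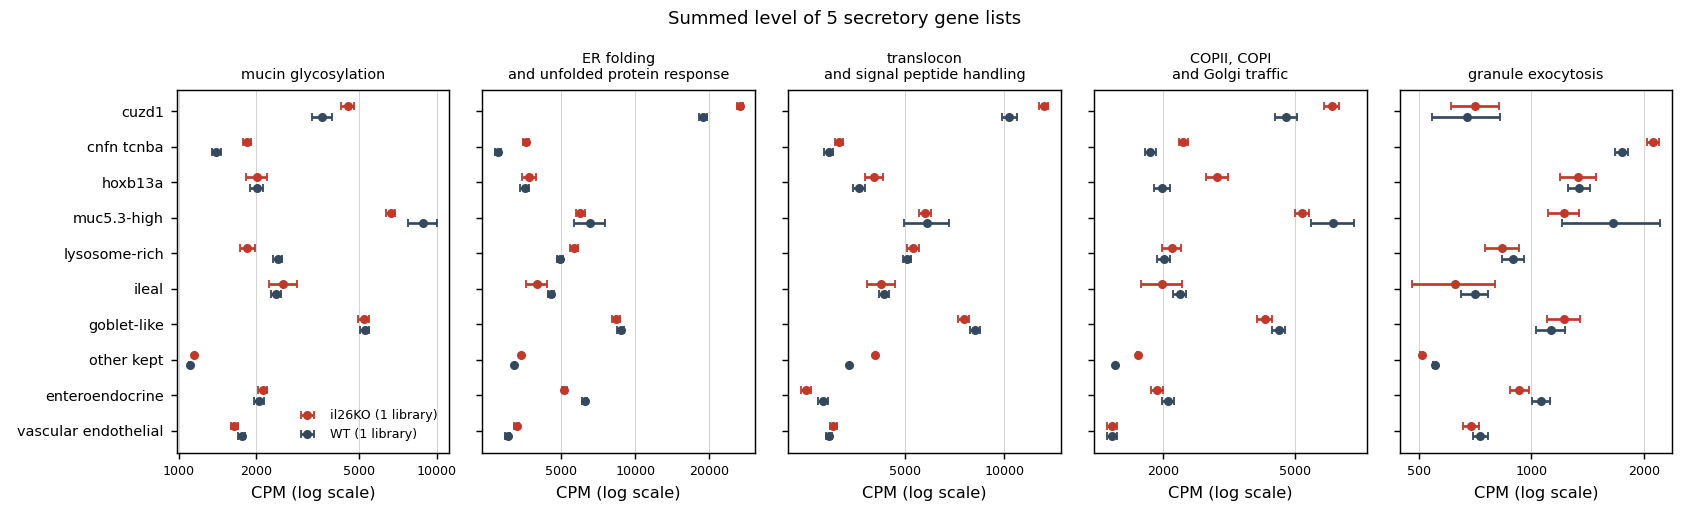
Summed CPM (log scale) of 5 lists of secretory genes in the subsets of the members, the other kept barcodes, enteroendocrine and vascular endothelial barcodes, il26KO (red, above) and WT (blue, below); bars are exact 95% Poisson intervals. Mucin glycosylation peaks in muc5.3-high and goblet-like members and ER folding, whose list holds the class gene pdia2, in cuzd1 members. In goblet-like members the libraries differ little in any of the 5 lists.

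Over all members, 549 of 8982 genes with at least 50 UMIs (6.11%) were 2-fold or more higher in il26KO and 412 (4.59%) were 2-fold or more lower, with a median log2 ratio of 0.13, so that scaling to the median gene would lower every ratio over all members by this much. Over 50% of the UMIs of 61 of the higher and 18 of the lower genes came from 1 member, and 186 of the 961 genes were 2-fold apart the same way in the empty droplets. The share of all tested genes that far apart in the empty droplets was not counted, so no excess can be read from this number. The genes furthest apart lay in several subsets. Of the 12 highest, prss60.2 had 2690 UMIs in il26KO and 46 UMIs in WT members (log2 ratio 6.30, interval 5.91 to 6.78), of which 2473 and 44 UMIs lay in muc5.3-high members. The gene ponzr6 (290 UMIs in il26KO and 21 UMIs in WT, log2 ratio 4.18), BX901923.2 (488 and 42 UMIs, 3.96), si:dkey-222f2.1 (438 and 40 UMIs, 3.88), si:dkeyp-92c9.4 (226 and 23 UMIs, 3.70) and si:dkey-203a12.9 (17303 and 2243 UMIs, 3.403) lay mainly in the same class. Of the il26KO UMIs of BX901923.2, 49.4% came from 1 member. The empty droplets gave ratios of 1.63 for prss60.2, 2.05 for si:dkey-203a12.9 and 0.89 for BX901923.2. They gave 0.63 for ponzr6, 0.48 for si:dkey-222f2.1 and -0.11 for si:dkeyp-92c9.4.

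Cytokine and prostaglandin genes among the 12 highest lay largely in cnfn tcnba members. The prostaglandin synthase gene ptgs2b had 118 UMIs in il26KO and 8 UMIs in WT members (log2 ratio 4.18), of which 98 il26KO UMIs lay in the cnfn tcnba class. There too lay 94 of the 95 il26KO UMIs of clcf1, a cytokine of the interleukin-6 family (7 UMIs in WT, log2 ratio 4.04), and 48 of the 89 il26KO UMIs of the neutrophil attractant cxcl8a (11 UMIs in WT, log2 ratio 3.36), of which 41.6% came from 1 member. In that class, too, lay 159 of the 226 il26KO UMIs of the claudin gene cldni and 118 of the 119 of cnmd, while 539 of the 542 il26KO UMIs of the elastase gene ela3l lay in cuzd1 members and the empty droplets ran the other way (-4.35). For cnmd and ela3l, 46.2% and 46.5% of the il26KO UMIs came from 1 member each. The empty droplets gave 0.89 for clcf1, -0.79 for cldni and -0.11 for each of ptgs2b, cnmd and cxcl8a. Of the 12 lowest, 102 of the 151 WT UMIs of meltf and 1872 of the 3055 WT UMIs of apoa4b.1, an apolipoprotein gene of enterocytes, lay in ileal members, and 163 of the 200 WT UMIs of fam102aa and 575 of the 911 WT UMIs of cyp2k6 in lysosome-rich members. The log2 ratio of il26KO over WT members was -3.21 for meltf, -3.20 for fam102aa, -3.00 for cyp2k6 and -2.80 for apoa4b.1. In the empty droplets these genes were at -0.39, -0.30, -1.89 and -0.65 in the same order. The elastase gene CELA1 (1 of many), at 5 UMIs in il26KO and 95 UMIs in WT members (log2 ratio -3.54), was lower by more in the empty droplets, at -5.15.

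Within the goblet-like members a smaller share of the tested genes was 2-fold apart. The minimum of 50 UMIs leaves only more abundant genes in this smaller sum, so the shares are not like for like. Of 1753 genes with at least 50 UMIs there, 66 (3.76%) were 2-fold or more higher in il26KO and 41 (2.34%) were 2-fold or more lower, with a median log2 ratio of 0.026. The highest was cebpb, a transcription factor gene of stress and inflammation, with 82 UMIs in 20 of 37 il26KO members and 24 UMIs in 14 of 61 WT members, 250 CPM against 55.3 CPM (log2 ratio 2.13, interval 1.504 to 2.90). In the empty droplets its ratio was 0.28. The heat shock gene hsp70l had 8988 CPM in il26KO and 2453 CPM in WT goblet-like members (1.873, interval 1.77 to 1.98), and it was also higher in il26KO in the empty droplets (1.02). The autophagy receptor gene sqstm1 had 426 CPM and 147 CPM (1.52, interval 1.095 to 1.98), the gene si:ch211-220m17.4 had 2271 CPM and 937 CPM (1.27, interval 1.1003 to 1.45), and hspbp1, which encodes a partner of heat shock proteins, had 600 CPM and 260 CPM (1.199, interval 0.86 to 1.55). For sqstm1, si:ch211-220m17.4 and hspbp1 the empty droplets gave 0.18, 0.27 and 0.41. Also above hspbp1 were mindy3 (log2 ratio 1.56), gstr (1.37), etnk1 (1.26) and klf3 (1.21). For mindy3 and gstr, 48.8% and 44.2% of the il26KO UMIs came from 1 member each. Weighting every goblet-like member equally, the ratio was 1.75 for cebpb, 1.81 for hsp70l, 1.16 for sqstm1, 1.46 for si:ch211-220m17.4 and 0.58 for hspbp1. Some of these genes were also higher in il26KO outside the members. The ratio of hsp70l was 1.75 in enterocyte barcodes, 1.15 in vascular endothelial barcodes and 0.95 in all other kept barcodes, and in enterocyte barcodes it was 0.76 for cebpb and 0.60 for sqstm1.

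Of genes within the same limits, the lowest in il26KO goblet-like members included absorptive and junction genes. The bile acid binding protein gene fabp6 had 1531 CPM in il26KO and 4742 CPM in WT goblet-like members (log2 ratio -1.63, interval -1.77 to -1.49), and apoa4b.1 had 107 CPM and 343 CPM (-1.66, interval -2.26 to -1.15). Both were also lower in the empty droplets of il26KO, by -1.01 for fabp6 and -0.65 for apoa4b.1. Members past the ileal limit, which uses fabp6, had been set apart before, so the fabp6 level of this class was capped. Of the il26KO UMIs of fabp6 here, 41.2% came from 1 member. The claudin gene cldn15a had 82.2 CPM in il26KO and 267 CPM in WT (-1.66, interval -2.36 to -1.09), with 0.023 in the empty droplets. The gene shroom3, which shapes the cell apex, had 85.2 CPM and 246.4 CPM (-1.49, interval -2.19 to -0.92), tm4sf4 had 727 CPM and 1718 CPM (-1.24, interval -1.46 to -1.03), and nupr1b had 219 CPM and 472 CPM (-1.09, interval -1.52 to -0.71). In the empty droplets the ratio was -0.22 for shroom3, -0.44 for tm4sf4 and -0.29 for nupr1b. In vascular endothelial barcodes the ratio was -1.30 for fabp6, -0.37 for apoa4b.1 and -1.47 for cldn15a (7 UMIs in il26KO and 24 in WT). There it was -0.54 for shroom3, -0.37 for tm4sf4 and -0.20 for nupr1b. Enterocyte barcodes gave -0.31, -0.43, 0.15, -0.089, -0.030 and -0.47 for these genes in the same order. The markers that picked the enterocyte barcodes include fabp6 and apoa4b.1, so the ratios of fabp6 and apoa4b.1 there were partly fixed by the choice. The carbonic anhydrase gene ca2 had 3 UMIs in il26KO and 81 UMIs in WT goblet-like members, but 97.5% of the WT UMIs came from 1 member.

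The summed secretory lists were closer to 0 when the comparison was held to goblet-like members, with a sign that depended on how members were weighted. Over all members mucin glycosylation was at 0.30 on the log2 scale (interval 0.26 to 0.34), with 5 of 52 tested genes 2-fold higher in il26KO and 3 lower, where 6.11% of all genes tested were higher and 4.59% lower. Its most abundant genes were papss2a, for the sulfate donor (284 CPM in il26KO and 153 CPM in WT members), gnpnat1 (205 and 143 CPM), the sialyltransferase gene st6galnac1.1 (143 and 155 CPM) and b3gnt3.4 (100.4 and 150 CPM). ER folding was at 0.45 (6 of 51 genes higher, 1 lower), with the chaperone gene hspa5 at 825 CPM in il26KO and 487 CPM in WT members, vesicle traffic at 0.42 (1 of 55 higher, 0 lower) and granule exocytosis at 0.32 (1 of 18 higher, 0 lower). For exocytosis, 1 member held 23.7% of the il26KO UMIs. Without the top member of each library its ratio was 0.16, and with equal weight of all members 0.12. In goblet-like members the same lists were at -0.012 (interval -0.10 to 0.08) for glycosylation, -0.06 (-0.13 to 0.01) for ER folding, -0.14 (-0.24 to -0.04) for vesicle traffic and 0.12 (-0.08 to 0.31) for exocytosis. Of their tested genes, 0 of 23, 0 of 28, 0 of 21 and 0 of 7 were 2-fold apart either way. Over all genes tested in goblet-like members 3.76% were higher and 2.34% lower, so lists of this size would hold few such genes. Weighting goblet-like members equally gave positive values, 0.099 for glycosylation, 0.27 for ER folding, 0.22 for vesicle traffic and 0.12 for exocytosis. Taken as medians over goblet-like members, the ER folding list was 86.0 per 10000 UMIs in il26KO and 61.8 in WT the vesicle traffic list 44.7 and 36.2, and the glycosylation list 58.6 and 55.5. Secretory transcription factors were at 0.14 in all members, where foxa2 was higher (43.4 CPM in il26KO and 16.4 CPM in WT) and klf4 lower (29.7 and 60.6 CPM), and at -0.15 (0 of 9 genes apart, with 3.76% higher and 2.34% lower over all genes) in goblet-like members.

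**Figure D5:**
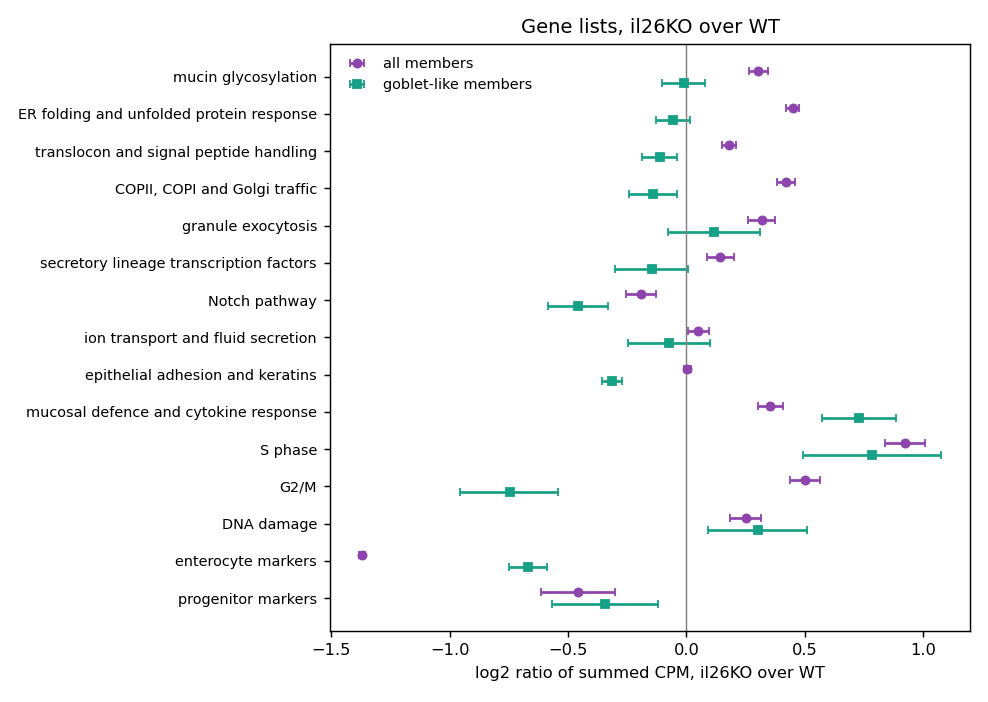
Log2 ratio, il26KO over WT, of the summed CPM of 15 gene lists in all members (purple circles) and in goblet-like members (green squares); bars are exact conditional 95% intervals for counting error, 1 library per genotype. Secretory lists lie above 0 over all members and close to 0 in goblet-like members, S phase genes lie above 0 in both (0.92 and 0.78), and enterocyte markers lie below 0 in both (-1.37 and -0.67).

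Summed genes of DNA synthesis were higher in il26KO members, with and without the muc5.3-high class. The part of the make-up of the members in this difference was not tested. The S phase list had 803 CPM in il26KO and 424 CPM in WT members (log2 ratio 0.92, interval 0.84 to 1.01), with 12 of 29 tested genes 2-fold higher (6.11% of all genes were) and 0 lower (4.59%), and was at 0.83 without muc5.3-high members. The clamp gene pcna had 331 UMIs in 36 il26KO members and 199 UMIs in 67 WT members (100.4 and 44.0 CPM), dut 67.3 and 21.9 CPM, and rrm2 25.5 and 7.74 CPM. Most members had little of it: the median was 2.07 per 10000 UMIs in il26KO and 1.85 in WT, and 23 of 120 il26KO members and 22 of 220 WT members had 10 or more per 10000. In goblet-like members the list was at 0.78 (interval 0.49 to 1.08) on 228 UMIs in il26KO and 175 UMIs in WT, at 10 or more per 10000 in 7 of 37 and 4 of 61 members, but the median ran the other way, at 1.75 in il26KO and 2.64 in WT. The empty droplets held the list at 665 CPM in il26KO and 502 CPM in WT, and the other kept barcodes at 737 and 689 CPM.

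The G2/M list was at 0.50 in all members (2 of 17 genes higher, 0 lower; 6.11% and 4.59% over all genes) and at -0.75 in goblet-like members (interval -0.96 to -0.54). There, however, 1 WT member held 61.8% of the WT UMIs of the list, and without the top member of each library the ratio was 0.43. The proliferation gene mki67 was found in 1 goblet-like member of each library, at 2 UMIs in il26KO and 19 UMIs in WT. The DNA damage list, which the study followed, was at 0.25 in all members (1 of 26 genes higher, parp1, and 1 lower, nbn, near the 6.11% and 4.59% over all genes) and at 0.30 (interval 0.09 to 0.51) in goblet-like members, where 23 il26KO and 23 WT members had 10 or more per 10000 UMIs. The cell cycle inhibitor gene cdkn1a had 82.2 CPM in il26KO members and 50.2 CPM in WT members.

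Notch genes, which hold cells back from the secretory fate, were at -0.19 in all members (3 of 14 genes higher, 0 lower; 6.11% and 4.59% over all genes) and at -0.46 (interval -0.58 to -0.33) in goblet-like members. Their most abundant member her6, a Notch target of the Hairy family, had 385 CPM in il26KO and 503 CPM in WT members. In goblet-like members 1 il26KO member held 41.2% of the il26KO UMIs of the list, and without the top member of each library the ratio was -0.88. Of the il26KO UMIs of her15.1 in goblet-like members, 81.9% came from 1 member. The annexin gene anxa4, named in the study and high in goblet-like members, had 2502 CPM in il26KO and 3788 CPM in WT there, and 1002 and 1503 CPM over all members (log2 ratio -0.59), with a ratio of -0.60 in the empty droplets. Of the other genes in the study's text, mych had 73.1 CPM in il26KO and 99.3 CPM in WT members (-0.44) and mycb had 61.3 and 44.9 CPM (0.45).

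Members had transcripts of the IL-26 receptor chains at low levels. The gene il20ra had 57 UMIs in 28 il26KO members and 76 UMIs in 49 WT members, 17.3 and 16.8 CPM, against 26.9 and 20.8 CPM in the other kept barcodes. In goblet-like members it had 10 UMIs in il26KO and 3 UMIs in WT, and in muc5.3-high members 0 UMIs in both. The second chain il10rb had 28.8 CPM in il26KO and 26.1 CPM in WT members and the signal transducer stat3 had 24.6 and 31.4 CPM. The mucosal defence list was at 0.35 in all members and 0.73 in goblet-like members, and single cells weighed in some of its genes: 97.7% of the 128 il26KO UMIs of the chemokine gene cxcl18b in goblet-like members came from 1 member, and so did 96.6% of the 175 UMIs of ccl19a.1 and 54.3% of the 199 UMIs of saa in all il26KO members. Weighting members equally, the list was at -0.011 in all members and 0.29 in goblet-like members, and without the top member of each library it was at 0.41 and 0.47.

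Markers of other cell types moved with the comparison. The enterocyte list had 16855.5 CPM in il26KO and 43552 CPM in WT members (log2 ratio -1.37; 1 of 19 tested genes higher, 10 lower, with 6.11% and 4.59% over all genes) and 5692 and 9053 CPM in goblet-like members (-0.67; 0 of 11 higher, 2 lower, with 3.76% and 2.34% over all genes). The same list stood at 44137 CPM in il26KO and 58012 CPM in WT empty droplets and at 1875 and 2560 CPM in vascular endothelial barcodes. The 4 enzyme genes of the left-out rule had 7 UMIs (21.3 CPM) in il26KO and 133 UMIs (306 CPM) in WT goblet-like members, and stood at 237 CPM in il26KO and 6820 CPM in WT in empty droplets. Enteroendocrine markers had 78.9 CPM in il26KO and 120 CPM in WT members, against 46029 and 38662 CPM in enteroendocrine barcodes. Leukocyte markers (10.0 and 11.9 CPM) and vascular endothelial markers (19.7 and 28.5 CPM) were near 0 in members of both libraries. The part of free RNA and of mixed droplets in the differences between il26KO and WT members was not tested.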

How the data were processed

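Whole guts were profiled by 3′ droplet sequencing. The authors deposited raw UMI counts for all barcodes; the file headers name Cell Ranger 7.1.0 and the submitters' processing notes danRer11. The annotation release and the handling of intronic reads are not given in the sources used here. Features of the same symbol were summed, and 300 il26KO and 309 WT barcodes failed the mitochondrial limit. Doublets were kept, because Scrublet's automatic threshold called 1 barcode per library.

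Counts were summed per library and subset and scaled to CPM, and gene ratios carry a pseudocount of 1 UMI per library. Shares have Clopper-Pearson intervals, CPM Poisson intervals and ratios conditional exact intervals (95%). Genes needed at least 50 UMIs and were called at 2-fold. On simulated counts with counting error only, at the depth of the members, 0.228% of 8791 unchanged genes were called. The simulation held no variation between cells, subsets or libraries, so this is not the rate of false calls in the data. Comparison classes held 2 or more markers and a marker share of 3% (enterocyte) or 0.3% (enteroendocrine, vascular endothelial).

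Named genes were the rule genes, the study's genes with 10 or more UMIs, the 25 highest over other barcodes (50 or more UMIs in each library), the 12 highest and 12 lowest ratios (100 or more UMIs, leaving out 68 genes over all members and 12 in goblet-like members with over 50% of the higher library's UMIs in 1 member), and in each of 28 lists the 4 most abundant and those 2-fold apart. Other named genes, among them the leading genes of each subset, were chosen after their values were seen. Members and lists were chosen with earlier results of these data known. Alternatives changed the filters, the rule, doublets, scaling, weighting, depth and the subsets included, the last chosen after seeing the data. Python 3.11.15, numpy 2.4.6, scipy 1.17.1, pandas 2.3.3 and scanpy 1.11.5 were used.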

Additional observations from a re-analysis of the deposited data

How the results depend on the processing

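No paired analysis was possible because each genotype had 1 library. The members' share was lower in il26KO than in WT in all alternatives but those with a higher rule threshold: the log2 ratio was -0.012 at 0.4% of UMIs in the rule genes and 0.057 at 0.8%, and -0.70 to -0.20 in the 14 others. The count of genes 2-fold apart in the members, 961, was 459 with 0.8% of UMIs in the rule genes, 1506 with equal weight of cells, 97 after thinning to 2000 UMIs, 1779 with at least 20 UMIs, 284 with at least 200 UMIs and 6089 with no minimum. It was 107 in goblet-like members only, 600 without lysosome-rich and ileal members, 534 without these and the muc5.3-high members, and 803 to 1306 in the 16 others. Of 28 lists, 16 were higher in il26KO, 7 of 28 in goblet-like members only, where 15 lists changed sign, and 11 to 17 in the 19 others. The pancreatic enzyme genes outside the rule, higher in il26KO members (1.52), turned to -0.49 at a rule threshold of 0.8%, -0.83 with at least 4 rule genes detected and -2.24 in goblet-like members only. A single member held 44.0% of their UMIs in the il26KO members. Their ratio over all members was 0.058 with equal weight of members and 0.90 without the top member of each library. The causes were not tested. Depth limits most the classes of few members, such as the 3 WT muc5.3-high members, and 1 library per genotype leaves every difference without a replicate check.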
